A study of Mus musculus with 2 samples.

Results

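The interferon-inducible GTPases Gbp2, Gbp3, Gbp4, Gbp5, Gbp7, Irgm1, Irgm2, Igtp and Iigp1 and the transcription factor Irf1 were taken by their symbols from the feature lists of both libraries, where all 10 were found once among 55357 features. The cells came from tumours that the mouse prostate cancer line RM-1 formed under the skin of C57BL/6 mice, that is, from 1 line and outside the prostate. The mice had been given vehicle or RP-6306, an inhibitor of the kinase PKMYT1, and tumours were taken at day 10 of treatment. Both arms carry the genotype label WT, and each arm is 1 droplet-based single-cell library of transcript 3' ends. The design text speaks of a pair of mice, and how many mice entered each library is not clear from it. No arm was given an interferon.

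Interferons are secreted proteins that signal through the JAK kinases and STAT factors. Interferon gamma signalling acts through GAS elements in the DNA, and type I interferons act mainly through ISRE elements, bound by a complex that includes IRF9. Irf1 is itself an interferon gamma target and binds ISRE-like sequences in many of the same genes. The products of the Gbp genes are large GTPases that gather on the membranes around intracellular pathogens and feed inflammasomes, while the immunity-related GTPases (Irg) are smaller: Iigp1 attacks the vacuole, and Irgm1, Irgm2 and Igtp act as its regulators on the cell's own membranes.

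The sequences before the start sites are shown first. Whether they bear on the levels described below was not tested. RefSeq promoter entries on GRCm38.p6 were used for 8 of the 10 genes, and none was used for Gbp4 and Iigp1. The 250 bases before each start were searched on both strands for a core ISRE, GAAANNGAAA (TTTCNNTTTC on the other strand), and a core GAS, TTCNNNGAA, which reads the same on both strands. The windows below run 5′ to 3′ along the gene's strand, with the matches in capitals. The Gbp2 window lies at chr3:142620574-142620643 and the Gbp7 window at chr3:142530200-142530322, both on the plus strand. The Irgm1 window lies at chr11:48871421-48871480 on the minus strand. The plus-strand windows of Irgm2, Igtp and Irf1 lie at chr11:58214872-58214952, chr11:58199481-58199555 and chr11:53769894-53769962.
Gbp2: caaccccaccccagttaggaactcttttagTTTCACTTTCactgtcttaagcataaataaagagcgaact
Gbp7: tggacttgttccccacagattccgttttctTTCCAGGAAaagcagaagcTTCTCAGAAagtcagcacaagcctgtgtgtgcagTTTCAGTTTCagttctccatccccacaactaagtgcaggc
Irgm1: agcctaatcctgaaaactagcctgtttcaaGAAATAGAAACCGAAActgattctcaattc
Irgm2: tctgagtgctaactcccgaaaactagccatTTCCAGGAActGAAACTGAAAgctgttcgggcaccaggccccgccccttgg
Igtp: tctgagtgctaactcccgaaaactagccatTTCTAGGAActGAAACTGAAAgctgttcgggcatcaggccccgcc
Irf1: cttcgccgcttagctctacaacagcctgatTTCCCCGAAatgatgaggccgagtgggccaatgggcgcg

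A core ISRE was found in 7 of the 7 GTPase promoters searched (Gbp2, Gbp3, Gbp5, Gbp7, Irgm1, Irgm2 and Igtp), against 2.98% of 32851 promoters of the same length. A core GAS was found in 4 of these 7 (Gbp5, Gbp7, Irgm2 and Igtp), against 7.02% of all promoters, and both motifs occurred together in 0.332% of all promoters. The Irf1 window held 1 GAS match and no ISRE match. Gbp3 and Irf1 each have another listed start, and the 250 bases before it held neither motif. Irgm1 and Gbp3 each had 2 overlapping ISRE matches. The Irgm2 and Igtp windows shared 73 of 75 aligned bases. A match describes these letters only, and binding was not measured.

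**Figure D1:**
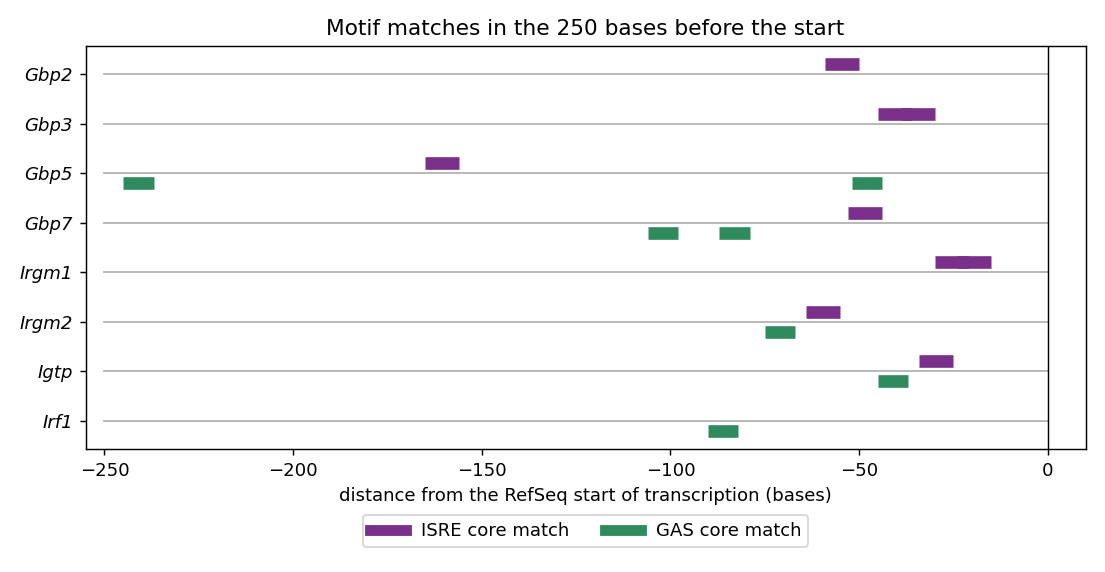
Core ISRE (above each line) and core GAS (below each line) matches in the 250 bases before the RefSeq start, for the 8 genes with an entry used; the x axis is the distance from the start in bases. All 7 GTPase promoters carry an ISRE match and Irf1 carries a GAS match only.

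On GRCm38 (GENCODE M21) all 10 genes are protein-coding. Gbp5 (ENSMUSG00000105504, chr3:142493978-142522344), Gbp7 (ENSMUSG00000040253, chr3:142530342-142550149), Gbp3 (ENSMUSG00000028268, chr3:142560026-142573209) and Gbp2 (ENSMUSG00000028270, chr3:142620602-142638008) lie side by side on the plus strand. Gbp4 (ENSMUSG00000079363, chr5:105115767-105139586) lies on the minus strand of another chromosome, beside close relatives that could take or lose its reads. Irgm1 (ENSMUSG00000046879, chr11:48861968-48871683, minus strand), Irf1 (ENSMUSG00000018899, chr11:53770014-53778374, plus strand), Igtp (ENSMUSG00000078853, chr11:58199556-58207591) and Irgm2 (ENSMUSG00000069874, chr11:58199618-58222782) share a chromosome. The Irgm2 model overlaps Igtp on the plus strand, so how reads were divided between these 2 genes is uncertain. Iigp1 is ENSMUSG00000054072.

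The vehicle library held 9686 barcodes and 100815022 UMIs (unique transcript molecules) and the RP-6306 library 10512 barcodes and 106465655 UMIs, of which 9540 and 10308 barcodes were kept. The libraries shared 34 barcode sequences, 30 of them among the kept cells of both. Classes were gated on marker genes, and those of macrophages include Fcgr1, which interferon gamma can induce. The macrophage gate was thus not fully independent of an interferon response, and it was not repeated without Fcgr1. Tumour cells, gated on the keratins Krt8 and Krt18 and on having no Ptprc UMI, numbered 7777 and 8210, with median depths of 10033 and 10001 UMIs. Macrophages numbered 292 and 319 (4933.5 and 4437 UMIs), dendritic cells 18 and 25, fibroblasts 47 and 66, and endothelial cells 29 and 21. Cells that met no class made up 14.0 and 15.6%, and 601 and 674 cells had keratin levels at most 25% above the keratin limit or down to 0.8 of it. Levels are CPM, a gene's UMIs divided by all UMIs of its class in that library, on a fixed scale. CPM of 3' UMIs were not scaled by gene length, and no order is read between genes. A gene was counted as higher when its RP-6306 level was at least 25% above vehicle and as lower at 0.8-fold or less, among genes with at least 20 UMIs over both libraries. With 1 library per arm nothing could be tested: intervals are 95% intervals for counting error only, they are too narrow where UMIs of a gene gather in few cells, and "higher" or "lower" compares 2 libraries, not 2 treatments.

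In tumour cells, the 9 GTPases were higher in the RP-6306 library, each by 1.42-fold to 2.66-fold, while Irf1 stood at the same level in both. Summed, the GTPases were at 32.7 CPM in vehicle (2911 UMIs) and 52.1 CPM in RP-6306 (4845 UMIs), a ratio of 1.59 (1.52 to 1.67). Irf1 was at 124.7 CPM (11097 UMIs) and 124.8 CPM (11607 UMIs), a ratio of 1.001 (0.975 to 1.03). By the 25% limit, 9 of the 10 genes were higher, against 11.6% of 18003 genes, and none was lower, against 10.3%. The median ratio was 1.56 over the 10 genes and 0.987 over all genes. Summed over the 10 genes the ratio was 1.12 (1.10 to 1.15), since 11097 of the 14008 vehicle UMIs were Irf1.

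Gbp2, which targets the vacuoles of intracellular parasites, was at 9.96 CPM in vehicle and 14.8 CPM in RP-6306 tumour cells (887 and 1376 UMIs), a ratio of 1.48 (1.36 to 1.62). Gbp7, implicated in oxidative defence and autophagy, was at 4.75 and 6.73 CPM (423 and 626 UMIs), a ratio of 1.42 (interval 1.3 to 1.6). These were the 2 Gbp genes with the most UMIs in tumour cells. The remaining Gbp genes had few UMIs and larger ratios. Gbp3 stood at 1.34 and 2.74 CPM (ratio 2.05, 1.64 to 2.57) and Gbp4 at 0.888 and 1.68 CPM (ratio 1.89, 1.43 to 2.51). Gbp5, which promotes NLRP3 inflammasome assembly, was at 0.202 and 0.538 CPM from only 18 and 50 UMIs, a ratio of 2.66 (1.52 to 4.84).

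Among the Irg genes the effector had a higher ratio than its regulators. Iigp1 was at 1.94 CPM in vehicle and 4.96 CPM in RP-6306 tumour cells (173 and 461 UMIs), a ratio of 2.55 (2.14 to 3.06). The 3 regulators lay close together. Irgm1 was at 6.57 and 9.67 CPM (ratio 1.47, 1.32 to 1.63), Irgm2 at 1.78 and 2.76 CPM (1.56, 1.27 to 1.91) and Igtp at 5.27 and 8.23 CPM (1.56, 1.39 to 1.76). The interval of Iigp1 lay above the intervals of all 3, a comparison of counting error within the same libraries. As families, the 5 Gbp genes together had a ratio of 1.54 (1.45 to 1.65) and the 4 Irg genes 1.65 (1.54 to 1.76), intervals that overlap.

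**Figure D2:**
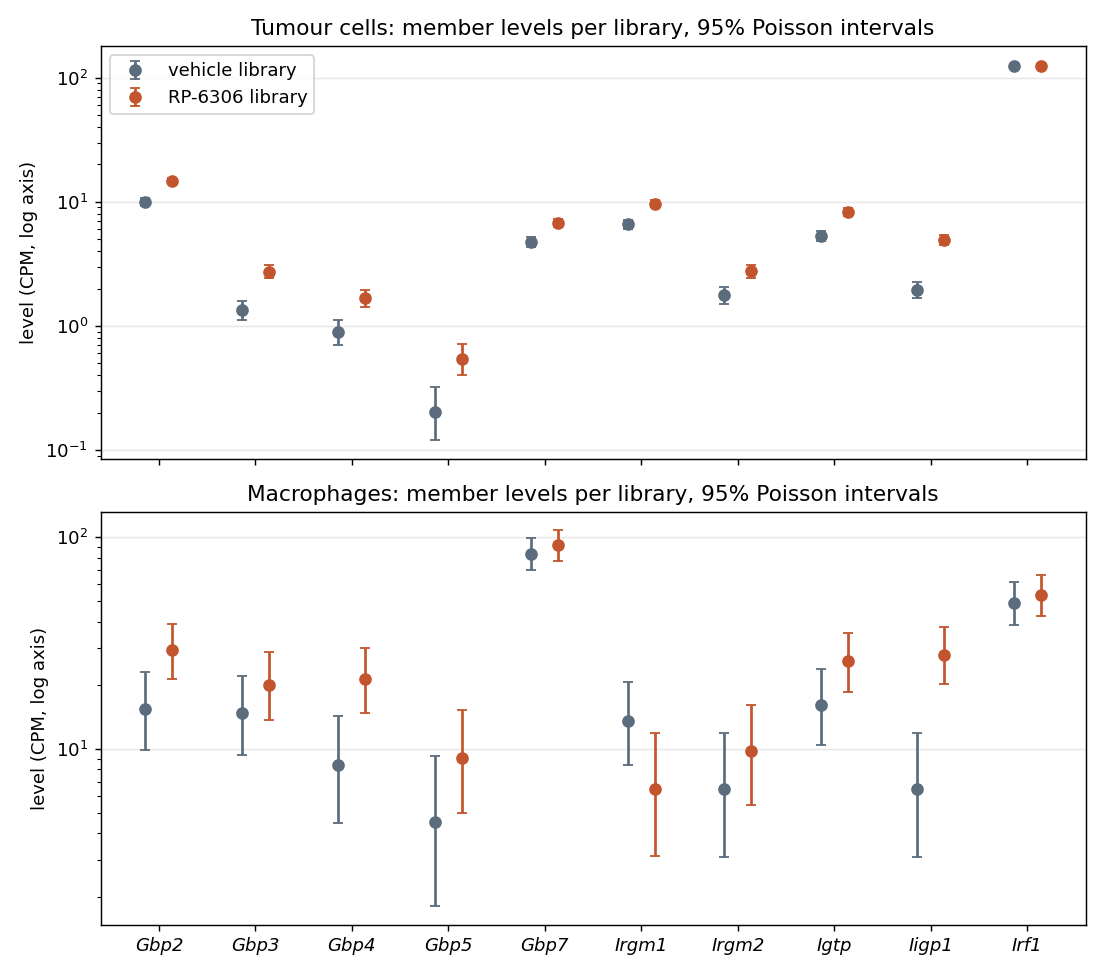
Level of each gene in CPM (log axis) in tumour cells (top) and macrophages (bottom), with 95% Poisson intervals; grey points are the vehicle and orange points the RP-6306 library. In tumour cells all 9 GTPases sit higher in RP-6306 and Irf1 sits at 124.7 and 124.8 CPM.

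**Figure D3:**
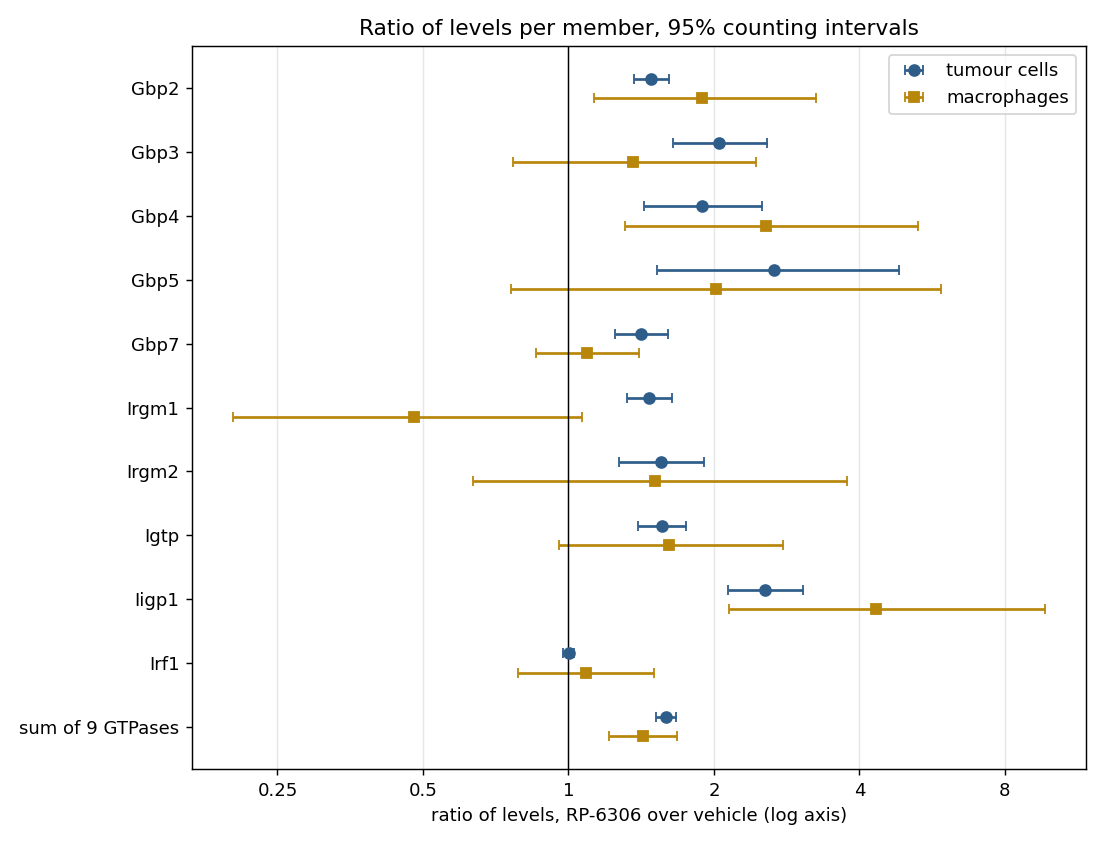
Ratio of levels, RP-6306 over vehicle (log axis), with 95% counting intervals, for tumour cells (circles) and macrophages (squares). The tumour intervals of all 9 GTPases lie above 1, that of Irf1 spans 1, and the macrophage intervals are wide, with Irgm1 at 0.480. The share of all genes with such intervals was not counted.

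The GTPase difference was present at every depth and in nearly all tumour subclusters. In quartiles of tumour cells by UMIs per cell, the summed ratio was 1.41, 1.55, 1.67 and 1.67 from the shallowest to the deepest. Of 11 tumour clusters found by Leiden clustering, the GTPases were higher in RP-6306 in 10, each with an interval above 1, with ratios up to 3.40. The remaining tumour cluster, of 55 and 65 cells, had a ratio of 0.858 (0.160 to 4.61). Irf1 was higher in 4 of the 11 clusters and lower in 7, and its vehicle level ran from 46.2 to 366 CPM over them. Its interval lay above 1 in 1 cluster (1.39, 1.23 to 1.57) and below 1 in 3. The equal pooled level of Irf1 thus did not hold in every cluster. Most marker lists of other cell types differed in summed level between the tumour cells of the 2 libraries. The summed levels were 740 and 803 CPM for the 10 fibroblast markers and 113 and 126 CPM for the 10 endothelial markers. They were 22.0 and 24.2 CPM for the 10 macrophage markers, 1.81 and 2.44 CPM for the 7 T cell markers and 2.01 and 5.46 CPM for the 5 neutrophil markers. NK cell markers were lower in RP-6306 (2.42 and 2.17 CPM) and dendritic markers near equal (1.55 and 1.59 CPM). The B cell, plasmacytoid dendritic, mast and pericyte lists were higher. The part of these marker values in the GTPase ratios was not tested.

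Levels in tumour cells were also set against those in macrophages. The macrophage markers stood in tumour cells at 0.0858 to 0.346% of their macrophage level. The gate partly fixes this low value, since a tumour cell had to fail the macrophage gate and have no Ptprc UMI. The GTPases stood at 4.49 to 64.5% of their macrophage level in vehicle and at 5.91 to 149% in RP-6306, and Irf1 at 255 and 234%. The proportions among the genes also differed between the classes. Tumour cells held 26.2 and 18.5 Irf1 UMIs for each Gbp7 UMI, and macrophages 0.585 and 0.582.

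The share of tumour cells with a UMI followed the levels. With each cell thinned to 2000 UMIs (7636 and 7984 cells, with 141 and 226 shallower cells left out), any GTPase was found in 6.14% (5.61 to 6.70%) in vehicle and 8.87% (8.25 to 9.51%) in RP-6306. Unthinned, the shares were 24.7 and 31.2%. Gbp2 was found in 1.96% (1.67 to 2.30%) and 2.92% (2.56 to 3.31%) of the thinned cells, and Iigp1 in 0.485% (0.341 to 0.667%) and 1.01% (0.806 to 1.26%). Irf1 was found in 21.7 and 22.0% of thinned cells, and in 58.4 and 56.7% unthinned. No gated class is known to lack these genes, so no background share of free RNA could be taken from one.

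A tumour cell with 1 GTPase gene more often held another. At 5000 UMIs per cell (6965 and 7292 cells, with 812 and 918 left out), none of the 9 genes was found in 86.1 and 80.6% of tumour cells. At levels this low, most cells would hold no GTPase UMI even if the UMIs were spread evenly. At least 3 of the 9 were found in 31 vehicle tumour cells, which is 0.445% (0.303 to 0.631%), and in 80 from RP-6306, which is 1.10% (0.871 to 1.36%). Another GTPase was found in 40.7% of the 54 vehicle cells with Iigp1 and in 52.3% of the 153 from RP-6306, against 13.2 and 17.6% of cells without Iigp1. For each of the 9 genes in both libraries, another GTPase was found more often in cells with the gene than without it. The difference varied in size. In vehicle the shares were 20.8% (12.2 to 32.0%) with Irgm2 against 13.0% without it, and 24.2% (11.1 to 42.3%) with Gbp4 against 13.5%. These intervals include the share without the gene. The highest 1% of tumour cells (78 and 83 cells) held 72.3 and 54.2% of the Iigp1 UMIs, 28.0 and 25.2% of the Gbp2 UMIs and 7.94 and 8.04% of the Irf1 UMIs. This share rises as a gene has fewer UMIs, so it is not compared between genes or libraries. Irgm2 in vehicle reached 51.9% with 158 UMIs spread over 154 cells.

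Pooled over tumour cells, Irf1 was at the same level in both libraries, but within each library it was higher in cells with more GTPases. Mean Irf1 per cell was 0.658 UMIs in vehicle cells with no GTPase, 0.905 with 1, 1.14 with 2 and 1.35 with at least 3 (0.976 to 1.83). In RP-6306 these means were 0.623, 0.783, 0.986 and 1.30 UMIs (1.06 to 1.58). At each number of GTPases, the Irf1 mean was thus no higher in RP-6306 than in vehicle. Both levels also fell with cell depth. From the shallowest to the deepest quartile of vehicle tumour cells, the GTPases went from 57.1 to 26.3 CPM and Irf1 from 213.5 to 94.4 CPM. In RP-6306 they went from 80.3 to 43.9 CPM and from 184 to 101 CPM. The part of depth and of tumour cluster in the Irf1 means was not tested. Isg15, a ubiquitin-like protein of the type I response, differed far more between such cells, from 0.229 UMIs with no GTPase to 6.13 with at least 3 in vehicle, and from 0.382 to 4.98 in RP-6306. The housekeeping gene Gapdh went from 8.95 to 7.68 and from 8.02 to 7.55 UMIs. Macrophage markers were at 21.4 CPM in vehicle cells without a GTPase and 19.9 CPM in those with at least 3, and at 23.4 and 20.7 CPM in RP-6306. T cell markers were at 1.61 CPM and then at 0 UMIs in vehicle, and at 2.45 and 4.60 CPM (4 UMIs) in RP-6306.

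**Figure D4:**
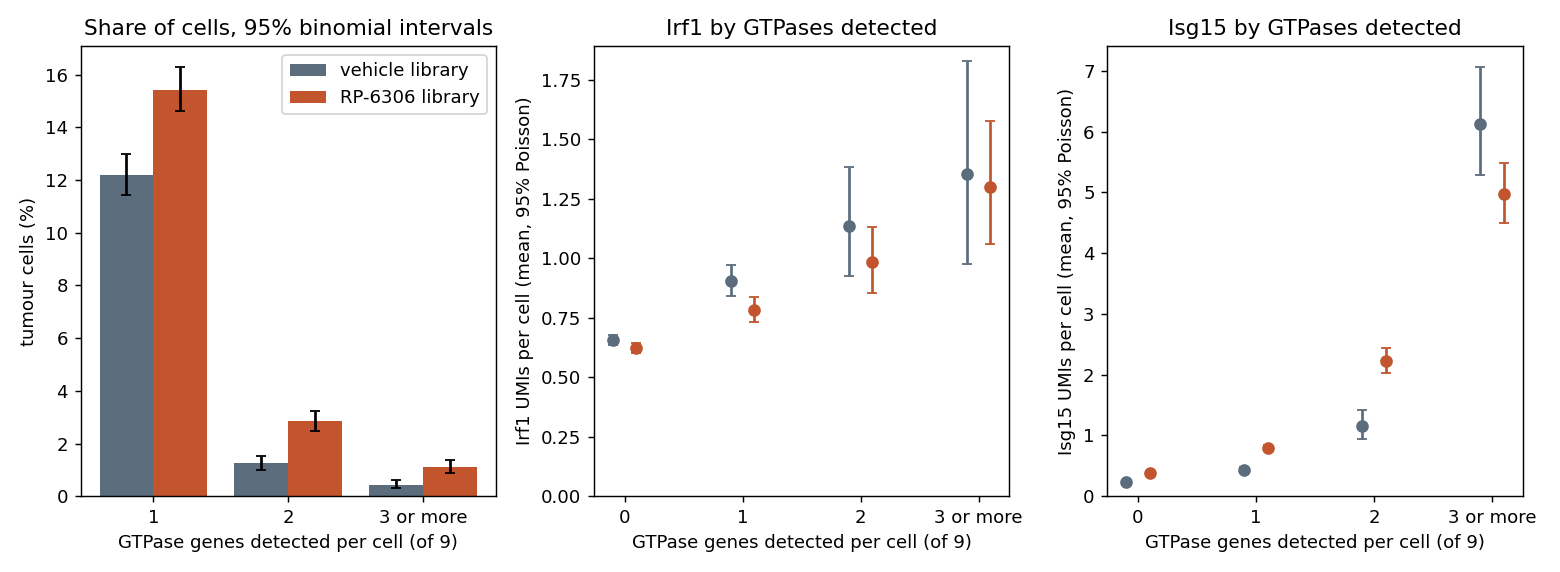
Tumour cells thinned to 5000 UMIs, by the number of the 9 GTPase genes with a UMI: share of cells (left, 95% binomial intervals), mean Irf1 UMIs per cell (middle) and mean Isg15 UMIs per cell (right), both with 95% Poisson intervals. More RP-6306 cells carry 1, 2 or at least 3 GTPases, and both Irf1 and Isg15 are higher in cells with more of them in each library.

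In macrophages the GTPases were higher in RP-6306 too, with Irgm1 in the other direction. The summed level was 169 CPM in vehicle (263 UMIs) and 242 CPM in RP-6306 (372 UMIs), a ratio of 1.43 (1.22 to 1.68). By the 25% limit, 7 of the 10 genes were higher, against 16.1% of 8970 genes, and Irgm1 alone was lower, against 18.6%. The median ratio was 1.56 over the 10 genes and 0.991 over all genes. Irf1 was at 48.9 and 53.3 CPM (76 and 82 UMIs), a ratio of 1.09 (0.787 to 1.51).

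Of the Gbp genes in macrophages, Gbp7 had the most UMIs and the smallest ratio, at 83.7 and 91.6 CPM (130 and 141 UMIs; 1.09, 0.856 to 1.40). Gbp2 was at 15.5 and 29.2 CPM (24 and 45 UMIs), a ratio of 1.89 (1.13 to 3.25), with 9 of the 45 UMIs in 1 cell. Gbp4 was at 8.37 and 21.4 CPM (13 and 33 UMIs), a ratio of 2.56 (1.31 to 5.30). Gbp3, at 14.8 and 20.1 CPM, and Gbp5, at 4.51 and 9.09 CPM, had intervals that included 1. Of the Irg genes, Iigp1 was at 6.44 and 27.9 CPM (10 and 43 UMIs), a ratio of 4.34 (2.15 to 9.68). Its UMIs came from 4 vehicle and 13 RP-6306 cells, with 6 of the 10 and 23 of the 43 in 1 cell of each library. Igtp was at 16.1 and 26.0 CPM (1.61, 0.955 to 2.78), Irgm2 at 6.44 and 9.74 CPM (1.51, 0.636 to 3.77) and Irgm1 at 13.5 and 6.49 CPM (21 and 10 UMIs; 0.480, 0.202 to 1.07). In macrophages thinned to 2000 UMIs, any GTPase was found in 25.4% of 280 in vehicle and 29.2% of 291 in RP-6306, and unthinned in 46.2 and 47.0%.

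The remaining classes were small. In fibroblasts the GTPases were at 67.7 and 139 CPM (20 and 61 UMIs), a ratio of 2.06 (1.22 to 3.60). This came from the Irg genes, with 7 and 44 UMIs (4.24, 1.90 to 11.2), and not from the Gbp genes, with 13 and 17 UMIs (0.882, 0.404 to 1.98). Without the cell of each library with most UMIs of the 10 genes, the GTPase ratio in fibroblasts was 1.30. The share of fibroblasts with any GTPase at 2000 UMIs went the other way, at 17.4% of 46 and 12.5% of 64. Iigp1 alone had 4 and 23 UMIs (13.5 and 52.5 CPM), with 11 of the 23 in 1 cell, and Irgm1 had 0 and 9 UMIs, with 5 of the 9 in 1 cell. Igtp had 1 and 8 UMIs, Irgm2 2 and 4, Gbp2 2 and 8, Gbp3 3 and 3, Gbp4 0 and 1 and Gbp7 8 and 5, while Gbp5 had none in either library. Irf1 had 14 and 30 UMIs (47.4 and 68.5 CPM; 1.45, 0.743 to 2.95). Of the 10 genes, Iigp1 and Irf1 reached 20 UMIs in fibroblasts and both counted as higher, against 27.2% of 4856 genes. For Irf1 in fibroblasts this call was lost with 2 markers required (1.14), with no keratin limit (1.03) and with cluster-based classes (1.17).

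In dendritic cells the GTPases had 14 and 22 UMIs (144.7 and 218 CPM; 1.51, 0.738 to 3.19), led by Gbp2 with 4 and 9 UMIs (41.3 and 89.3 CPM). With the mean of per-cell CPM the ratio was 0.936, so its direction depended on the scaling. Gbp7 had 1 and 5 UMIs in dendritic cells, Gbp3 0 and 2, Gbp4 3 and 3, Gbp5 2 and 1, Irgm1 3 and 1 and Igtp 1 and 1. Iigp1 and Irgm2 had no UMI in dendritic cells of either library, where 3 UMIs would be 31.0 and 29.8 CPM. Irf1, with 14 and 18 UMIs (144.7 and 178.6 CPM), was the only one of the 10 to reach 20 UMIs there and counted as neither, against 27% of 1464 genes higher and 30.6% lower. In endothelial cells the GTPases were at 172 and 141 CPM (42 and 23 UMIs), and the interval included 1 (0.819, 0.470 to 1.39). The share of endothelial cells with any GTPase went the other way, at 11.1% of 27 and 38.1% of 21 at 2000 UMIs. There Irf1 had 36 and 14 UMIs (147.8 and 85.9 CPM; 0.582, 0.290 to 1.10), with 12 of the 36 in 1 cell. It was the only one of the 10 to reach 20 UMIs and counted as lower, against 29.8% of 3490 genes. This call rested on the gate: the Irf1 ratio was 0.936 with 4 markers required, 1.02 with no keratin limit and 1.16 with cluster-based classes. Irgm1 had 7 and 0 UMIs in endothelial cells, Irgm2 3 and 0, Igtp 4 and 1 and Iigp1 9 and 7. Of the Gbp genes there, Gbp2 had 5 and 3 UMIs, Gbp3 2 and 3, Gbp4 2 and 4, Gbp5 2 and 0 and Gbp7 8 and 5.

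Across classes the GTPases and Irf1 were ordered differently. Tumour cells had the lowest summed GTPase level in both libraries. Relative to tumour cells, the sum was 5.18-fold in macrophages, 4.43-fold in dendritic cells, 2.07-fold in fibroblasts and 5.27-fold in endothelial cells of the vehicle library, and 4.64-fold, 4.19-fold, 2.67-fold and 2.71-fold in RP-6306. All 8 of these intervals lay above 1, while neighbours among the other 4 classes overlapped in both libraries. Macrophages were above tumour cells in 9 of 9 GTPases in vehicle and in 8 of 9 in RP-6306, where Irgm1 was the exception. Gene by gene the other classes were less uniform. Of the 9 GTPases, dendritic cells were above tumour cells in 6 in vehicle and 7 in RP-6306, endothelial cells in 9 and 5, and fibroblasts in 4 and 8. Irf1 in macrophages was 0.393-fold (0.309 to 0.492) the tumour level in vehicle and 0.427-fold (0.339 to 0.530) in RP-6306. In fibroblasts Irf1 was 0.380-fold and 0.549-fold the tumour level, and its dendritic and endothelial intervals included the tumour level in both libraries.

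**Figure D5:**
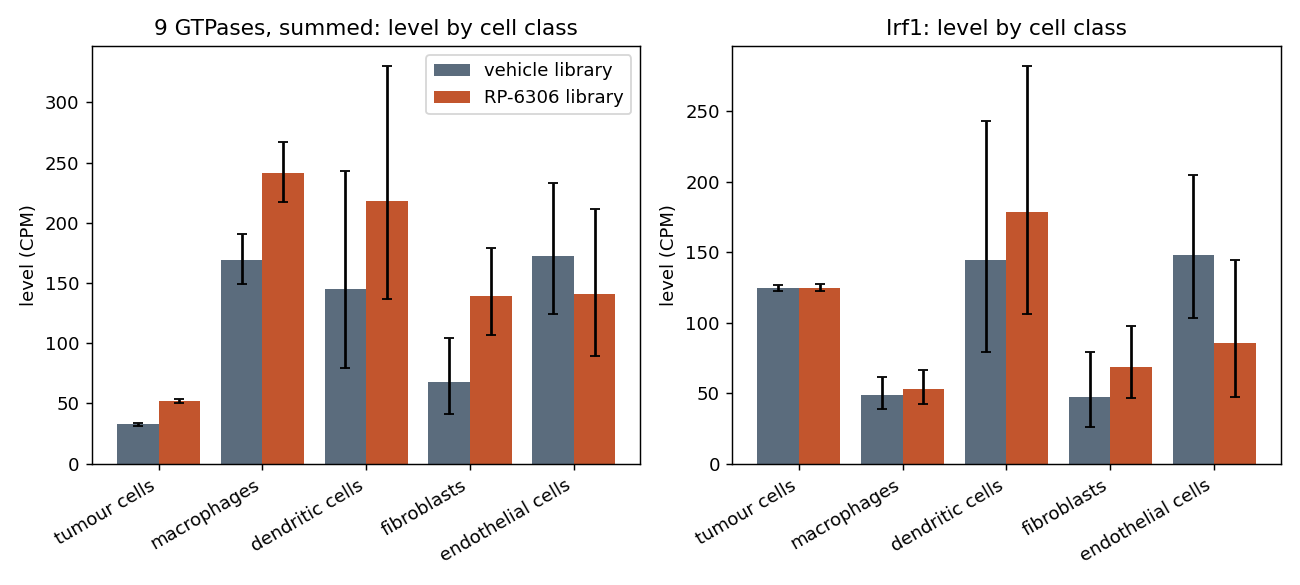
Level in CPM of the 9 GTPases summed (left) and of Irf1 (right) by cell class, with 95% Poisson intervals; grey bars are the vehicle and orange bars the RP-6306 library. The GTPase sum is lowest in tumour cells, at 32.7 and 52.1 CPM, whereas Irf1 in tumour cells is above its macrophage level of 48.9 and 53.3 CPM.

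Other genes of the same families and pathways were counted from lists, with the same limits. Over all genes, 11.6% were higher and 10.3% lower in tumour cells, and 16.1% higher and 18.6% lower in macrophages. Of 14 further Gbp and Irg genes, 9 reached 20 UMIs in tumour cells, where 6 were higher and none lower (median ratio 1.72), and 5 did in macrophages (Gbp8, Gbp9, Gm12250, Ifi47 and Gm4951), all 5 of them higher (median 1.60; Gbp9 and Gm4951 are named after their values were seen). In macrophages Gm12250 was at 9.66 and 28.6 CPM (2.96, 1.62 to 5.72), Ifi47 at 25.1 and 52.6 CPM (2.09, 1.41 to 3.15) and Gbp8 at 28.3 and 42.9 CPM (1.51, 1.02 to 2.27). None of the 14 reached 20 CPM in tumour cells. In tumour cells the related GTPases Irgq (5.99 and 5.83 CPM), Gbp9 (2.01 and 1.89 CPM) and Gbp8 (0.382 and 0.323 CPM) were not past the limits. Their ratios were 0.973, 0.941 and 0.844, and they are named here after their tumour values were seen.

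Receptors, kinases and inhibitors of the interferon gamma pathway named here were not past the limits in tumour cells. Ifngr1, a receptor chain, was at 45.9 and 55.2 CPM (1.20), the kinase Jak1 at 175 and 172 CPM and the feedback inhibitor Socs3 at 284 and 348 CPM (1.23). In macrophages Jak2 counted as lower (27.0 and 16.9 CPM; 0.624, 0.368 to 1.04), while Ifngr1 was at 272 and 251 CPM. Interferon gamma itself had 2 UMIs in tumour cells of each library and none in macrophages, and is named after its values were seen.

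Of 7 type I signalling genes in tumour cells, 4 were higher and none lower, against 11.6 and 10.3% of all genes. These were Stat2 (6.90 and 10.7 CPM), Irf9 (9.72 and 13.1 CPM), the feedback protease Usp18 (4.04 and 6.45 CPM) and Ifnb1, with 5 and 50 UMIs, all named after their values were seen. The receptor chains Ifnar1 (25.3 and 26.8 CPM) and Ifnar2 (27.9 and 25.4 CPM) were not past the limit. In macrophages 2 of 6 were higher, Stat2 at 30.9 and 50.01 CPM (1.62, 1.11 to 2.37) and Usp18. Of the other interferon regulatory factors in tumour cells, 1 of 5 was higher (Irf7, at 5.19 and 9.01 CPM), against 11.6% of all genes, and their median ratio was 0.941. Usp18 in macrophages and Irf7 in tumour cells are named after their values were seen. Irf2, which can bind the same sites as Irf1, was at 61.4 and 54.9 CPM and Irf8 at 82.7 and 80.4 CPM. In macrophages Irf7 was at 52.2 and 77.3 CPM (1.48, 1.11 to 1.99) and Irf8, a myeloid lineage factor, at 263 and 307 CPM. Irf4, with 22 and 8 UMIs, was the only one counted as lower there, and it is named after its values were seen.

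Few partners of the GTPases at vacuoles and inflammasomes were past the limits. Of 15 such genes, none was higher and 1 was lower in tumour cells (median 0.994), against 11.6% of all genes higher and 10.3% lower. In macrophages 2 (Aim2 and Casp1) were higher (median 1.03), against 16.1%. In tumour cells the ATG8 proteins Gabarap (764 and 770 CPM) and Map1lc3b (312 and 298 CPM) were near the same level, the pore protein Gsdmd was at 29.6 and 25.8 CPM, and Il18 was the lower gene, at 21.5 and 16.8 CPM (0.780, 0.729 to 0.834). In macrophages the DNA sensor Aim2 was at 32.8 and 44.2 CPM with an interval that included 1.

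Of 15 genes listed as targets of interferon gamma and Irf1, 14 reached 20 UMIs in tumour cells, where 6 were higher and none lower (median 1.18), against 11.6 and 10.3% of all genes. In macrophages 5 of 12 were higher (Cxcl9, Cxcl10, Tap1, Tap2 and B2m) and none lower (median 1.23), against 16.1% and 18.6%. Tap1 and Tap2 are named after their values were seen. The chemokine Cxcl10 was at 163 and 301 CPM in tumour cells (1.85, 1.81 to 1.88), while B2m, the light chain of MHC class I, was at 1213 and 1466 CPM (1.21) and was not past the limit. Among 10 type I response genes, all 10 were higher in both tumour cells (median 2.22) and macrophages (median 1.95). Rsad2, an antiviral enzyme, was at 20.97 and 58.5 CPM in tumour cells (2.79, 2.65 to 2.94) and Mx1, a dynamin-like antiviral GTPase, at 12.9 and 49.4 CPM in macrophages (3.83, 2.32 to 6.62).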

How the data were processed

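The authors deposited, per library, a matrix of raw UMI counts per gene and barcode with lists of barcodes and features; the values are whole numbers and not normalized. Per the file headers the matrices come from Cell Ranger 7.1.0. Version 2.1.1 of Cell Ranger and the build mm10 are what stands in the submitters' processing notes, a difference that was not resolved. Further filters before deposit are not given in the sources used here. The 10 genes, the lists and the comparisons were chosen with earlier results of these data known.

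Barcodes with under 500 genes or over 15% mitochondrial UMIs were removed (146 and 204). A non-tumour class needed UMIs of at least 3 markers, a summed marker CPM of at least 5 times the mean over kept cells, and Krt8 plus Krt18 under 355.8 CPM (the median over kept cells, 1067 CPM, divided by 3). Cells passing several classes went to none, except that macrophage or dendritic was decided by a lead of 2 markers. Tumour cells passed no class, had no Ptprc UMI and were at or above the keratin limit. All other cells were left ungated. Doublets were not removed in the main values; Scrublet's own threshold called 0 and 1 cells, and leaving out the highest 8% of scores (684 and 808 cells) was an alternative.

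Raw counts were added up within each class of a library and scaled to CPM. Levels have exact Poisson, shares exact Clopper-Pearson and ratios exact conditional 95% intervals. With 1 library per arm no p-value or standard error was computed. All 10 genes were named in each class. Of each pathway list, the 2 most abundant and the 2 with the largest ratio at 20 CPM or more in either library were candidates to be named in tumour cells and macrophages, and genes outside this rule were named after their values were seen. The sum over 9 GTPases, the co-detection, the depth quartiles and the ratios within clusters were added after the values were seen, because Irf1 supplied most UMIs of the sum over 10 genes. The interval code was tested on simulated data. Python 3.11.15, scipy 1.17.1, scanpy 1.11.5, leidenalg 0.10.2 and edgeR 4.0.16 (TMM factors only) were used.

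One gene of the interferon gamma signalling list is not reported here.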

Additional observations from a re-analysis of the deposited data

Results flagged for a closer look

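Irf1 in tumour cells pointed in opposite directions at different depths, although its pooled ratio was 1.001. Tumour cells of both libraries were split into quartiles by UMIs per cell. In the shallowest quartile (673 to 7009 UMIs) Irf1 was at 213.5 CPM in vehicle and 184 CPM in RP-6306 (ratio 0.862, 0.809 to 0.918). In the second the levels were 157 and 145 CPM (0.922, 0.872 to 0.974). In the third it was at 116 and 127 CPM (1.09, 1.04 to 1.15), and in the deepest at 94.4 and 101 CPM (1.06, 1.02 to 1.11). Each of the shallower quartiles was thus lower in RP-6306 and each of the deeper ones higher. With 1 library per arm this difference between quartiles was not tested. The summed GTPases were higher in RP-6306 in all 4 quartiles.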

How the results depend on the processing

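The ratios of the 10 genes and of their sums, the counts of genes past the limit and the shares of tumour cells with a UMI were recomputed under other scalings, pseudocounts, filters, gates, doublet removal, cluster-based classes and without the cell holding most of the genes' UMIs; the pathway lists, co-detection, depth quartiles, class order and promoter matches were not. Of 416 such values, 390 stayed within the counting interval of the main value or, for counts, within 1.5 times, 23 moved, and 3 values past the limits in the main setting changed direction. These 3 were the GTPase ratio in dendritic cells, 0.936 with the mean of per-cell CPM, and Irf1 in endothelial cells, 1.16 with cluster-based classes and 1.02 with no keratin limit; the cause was not tested. Part of the 390 was fixed in advance. Dropping the keratin limit of non-tumour cells leaves the tumour cells unchanged, and the wide intervals of the small classes hold most values. The summed 10-gene ratio in tumour cells was 1.08 with the mean of per-cell CPM and 1.04 with only genes at 10 CPM or more. The 9-GTPase ratio in tumour cells was 1.51 on log2(CPM + 5) and 1.48 with only genes at 10 CPM or more, which keeps Gbp2 alone. Irf1 in tumour cells was 0.962 with the mean of per-cell CPM. The 9 genes counted as higher in tumour cells became 4 on log2(CPM + 5) and 1 with only genes at 10 CPM or more. The 7 in macrophages became 4 with at least 50 UMIs. These steps shrink ratios of low genes or drop them by construction. Over all alternatives the GTPase ratio was 1.48 to 1.62 in tumour cells, 1.36 to 1.51 in macrophages, 1.30 to 2.78 in fibroblasts, 0.936 to 1.95 in dendritic cells and 0.771 to 1.02 in endothelial cells. Iigp1 in macrophages became 10.4 without the highest doublet scores and 5.02 without the cell of each library with most UMIs of the 10 genes. Irgm1 in macrophages was 0.428 to 0.872. The share of tumour cells with a UMI was higher in RP-6306 for 10 of 10 genes at 2000 UMIs, and for 9 at 1000 UMIs and unthinned. At 2000 UMIs the intervals of the 2 libraries overlapped for Gbp4, Gbp5, Gbp7, Irgm1, Irgm2 and Irf1 (21.7 and 22.0%). The like count over all genes was not made.

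No paired analysis was possible because each arm holds 1 library, and leaving out a replicate was not possible for the same reason. Depth limits the small classes most: dendritic cells gave 14 and 22 GTPase UMIs and endothelial cells 42 and 23, and differences inside their intervals were not detectable.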

Other observations

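T cells, gated on Cd3e, Cd3d and other T cell markers and not among the 5 classes described, had 23 and 38 cells at a low median depth of 1481 and 1351 UMIs. Their summed GTPase level was 469 CPM in vehicle (20 UMIs) and 354 CPM in RP-6306 (30 UMIs), a ratio of 0.755 (0.415 to 1.40). Gbp7 had 4 and 10 UMIs, Igtp 5 and 7, Gbp5 5 and 0 and Irf1 7 and 11.

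The cells that met no class (1340 and 1608) held 724 GTPase UMIs in vehicle, at 76.9 CPM against 105 CPM in RP-6306, with an interval of the ratio from 1.2 to 1.5. Irf1 in these cells was at 213 and 191 CPM, with an interval of 0.842 to 0.952. Iigp1 there was at 11.2 and 20.2 CPM, and Gbp5 at 0.956 and 4.31 CPM, while Irgm1 stood at 14.2 and 13.4 CPM and Irgm2 at 4.89 and 4.49 CPM.

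Across the 10 points of 5 classes in 2 libraries, the genes whose log2(CPM + 1) followed the mean of the 10 genes most closely among 9797 candidates were Parp14 (Pearson r = 0.92), Tifa (0.91), Rcsd1 (0.91), Arl8b (0.90) and Tbc1d10b (0.90). The points of a library share its depth and free RNA, and several rest on few cells. The 10 genes themselves ranged from 0.099 for Irf1 to 0.867 for Igtp. Parp14, an ADP-ribosyltransferase, was at 7.13 and 10.4 CPM in tumour cells and 32.8 and 63.0 CPM in macrophages.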
